A study of Mus musculus with 63 samples.

Results

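The 8 genes described here are Spock1, Coch, Cpne4, Nnat, Bok, Iyd, Galnt3 and Cdh24, a list of markers of CA3 pyramidal identity that was taken by symbol from the 55291 gene symbols of the count tables. They were read in all 63 libraries of organotypic entorhino-hippocampal tissue cultures of the mouse, slices of hippocampus and entorhinal cortex that mature in vitro with their connections in place. The cultures were made at postnatal day 3 to 5 from mice of either sex, which were wildtype C57BL/6J (Synpo+/+) or synaptopodin-deficient B6.129-Synpotm1Mndl/Dllr (Synpo-/-), and matured for at least 18 days. In the entorhinal cortex lesion (ECL) the perforant path was cut, and tissue was taken 3 days later.

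Each of the 39 regional libraries was made from 1 CA3 area or 1 dentate gyrus (DG), dissected with a scalpel from 1 culture, so it holds every cell type of that area. Non-lesioned CA3 had 2 Synpo+/+ and 6 Synpo-/- libraries, and lesioned CA3 had 3 Synpo+/+ and 6 Synpo-/- libraries. Non-lesioned DG had 4 Synpo+/+ and 7 Synpo-/- libraries, and lesioned DG had 7 Synpo+/+ and 4 Synpo-/- libraries. The other 24 libraries came from pools of 5 to 6 whole cultures. In the synaptopodin co-immunoprecipitation (coIP), an anti-synaptopodin antibody pulls synaptopodin out of a lysate with RNA that is associated directly or indirectly. Part of the lysate is sequenced as input. There were 5 coIP and 5 input libraries from Synpo+/+ control cultures, 5 and 5 after ECL, and 2 and 2 from Synpo-/- cultures, whose labels give no lesion state. The labels do not say whether replicates came from separate animals, so p-values measure the spread between these samples, which may in part be technical.

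CA3 pyramidal neurons are the excitatory cells that receive the mossy fibers of the dentate granule cells on large, complex spines near the soma, and the perforant path on their distal dendrites. They also excite each other through recurrent collaterals and project onward to CA1. Genes whose transcripts are denser in CA3 than in DG or CA1 are used to name these cells in expression maps, and many of them have roles outside the brain. Among the 8 genes, Spock1 encodes testican-1 and Coch encodes cochlin, both secreted proteins of the extracellular matrix. Cpne4 encodes a copine, which binds membranes when calcium rises, and Nnat encodes neuronatin, a small proteolipid of the endoplasmic reticulum membrane from an imprinted locus. Bok is a member of the Bcl-2 family of apoptosis regulators. Iyd encodes iodotyrosine deiodinase, which recovers iodide from iodinated tyrosines in the thyroid. Galnt3 encodes an enzyme that starts mucin-type O-glycosylation, and Cdh24 encodes a cadherin, a calcium-dependent adhesion protein.

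All 8 genes are protein coding (positions in GRCm38). Spock1 (ENSMUSG00000056222.15) lies at chr13:57421195-57908332 on the minus strand, Coch (ENSMUSG00000020953.17) at chr12:51593341-51605771 on the plus strand and Cpne4 (ENSMUSG00000032564.16) at chr9:104547286-105034544 on the plus strand. Nnat (ENSMUSG00000067786.16), at chr2:157560078-157562522 on the plus strand, sits inside the gene Blcap, and 4.76% of its exon bases are shared with Gm23134 on the other strand. Since reads were counted without regard to strand, this small share cannot be assigned. Bok (ENSMUSG00000026278.14) lies at chr1:93685660-93695764 on the plus strand and Iyd (ENSMUSG00000019762.4) at chr10:3540240-3554877 on the plus strand. Galnt3 (ENSMUSG00000026994.9) lies at chr2:66082766-66124994 and Cdh24 (ENSMUSG00000059674.7) at chr14:54631231-54641364, both on the minus strand.

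Spock1 and Cpne4 separated CA3 from DG most, and Nnat was the 1 gene of the 8 called with the lesion in Synpo+/+ CA3. Iyd had the regional fold change that ranged most widely over the strata. For these 4 genes, the stretches of 250 bases before the annotated start are shown. They are RefSeq sequence of GRCm38.p6, written 5′ to 3′ on the gene's own strand, with capitals for the E-box CANNTG, the letters bound by basic helix-loop-helix factors, and for the GC box GGGCGG, both searched on either strand.
Spock1: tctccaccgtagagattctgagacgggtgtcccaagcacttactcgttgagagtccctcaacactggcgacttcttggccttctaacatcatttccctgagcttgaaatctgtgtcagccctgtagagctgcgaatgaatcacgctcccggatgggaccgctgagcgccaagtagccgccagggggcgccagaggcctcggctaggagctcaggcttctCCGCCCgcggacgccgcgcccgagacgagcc
Cpne4: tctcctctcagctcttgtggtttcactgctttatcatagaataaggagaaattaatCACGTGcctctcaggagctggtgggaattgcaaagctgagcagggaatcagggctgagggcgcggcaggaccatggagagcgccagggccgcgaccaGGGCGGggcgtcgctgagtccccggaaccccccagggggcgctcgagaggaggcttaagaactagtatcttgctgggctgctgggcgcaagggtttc
Nnat: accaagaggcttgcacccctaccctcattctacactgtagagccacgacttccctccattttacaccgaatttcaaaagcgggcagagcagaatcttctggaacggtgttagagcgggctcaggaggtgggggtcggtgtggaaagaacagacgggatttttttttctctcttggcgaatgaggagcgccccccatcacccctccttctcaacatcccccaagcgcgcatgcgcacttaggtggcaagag
Iyd: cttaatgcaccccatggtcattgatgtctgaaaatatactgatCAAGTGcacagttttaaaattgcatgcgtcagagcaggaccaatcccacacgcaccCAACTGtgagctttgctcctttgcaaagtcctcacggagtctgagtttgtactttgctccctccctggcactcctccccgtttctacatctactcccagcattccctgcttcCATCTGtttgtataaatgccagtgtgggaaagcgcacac
The stretches lie at chr13:57908333-57908582 (minus strand), chr9:104569405-104569654, chr2:157559828-157560077 and chr10:3540024-3540273 (plus strand for these 3). The Cpne4 stretch belongs to 1 of 2 RefSeq starts of that gene. Iyd held 3 E-boxes, 1 TATA box (TATAAA) and no GC box, whereas Spock1 held 1 GC box and no E-box. Cpne4 held 1 of each, and the Nnat window held neither. Over all 32851 mouse promoter windows of this length, 66.2% held CANNTG, 32.7% held GGGCGG and 12.4% held TATAAA. All 8 genes were found in the RefSeq table, with 9 starts. GC content was 48.4% at Iyd, 54.8% at Nnat, 59.6% at Cpne4 and 61.2% at Spock1, against 74.8% at Coch, 72.8% at Cdh24 and 76.8% at Galnt3, with a median of 52.4% over all windows. Motif matches describe the letters in these windows and do not show that a factor binds.

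Total counts per library were 14055930 to 46043990 in the regional experiment (median 22354491) and 11601154 to 53682143 in the coIP experiment (median 23265704). Levels are CPM, counts scaled to TMM library sizes within each experiment. The library labelled DG Synpo+/+ ECL replicate 5 did not match the other DG libraries. It had 15.5 CPM of Prox1, the transcription factor that marks dentate granule cells, against 120 to 217 CPM in the other 21 DG libraries and 12.7 to 44.0 CPM in the 17 CA3 libraries. The summed level of the 8 listed genes was 861 CPM in it, against 177 to 367 CPM in the other DG libraries and 402 to 833 CPM in CA3. Test results of the 8 genes that rest on this library are given with and without it. Marker lists and correlations include it. Choroid plexus markers (Ttr, Kcnj13 and Clic6) summed to 2301 and 6071 CPM in replicates 1 and 3 of the same group and to 8582 CPM in DG Synpo-/- ECL replicate 2. Synpo itself had a higher, not lower, mean in CA3 under the label Synpo-/- (control 40.4 ± 6.19 CPM, SD, n = 6, against 25.8 ± 0.0704 CPM, SD, n = 2, in Synpo+/+). The difference did not pass in the edgeR test used below (log2 fold change 0.58, adjusted p = 0.113), nor did that after ECL (0.25, adjusted p = 0.808). The counts sum reads over all exons of a gene, and where the deletion lies among them was not settled. This level therefore does not check the genotype labels, which are used as given.

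**Figure D1:**
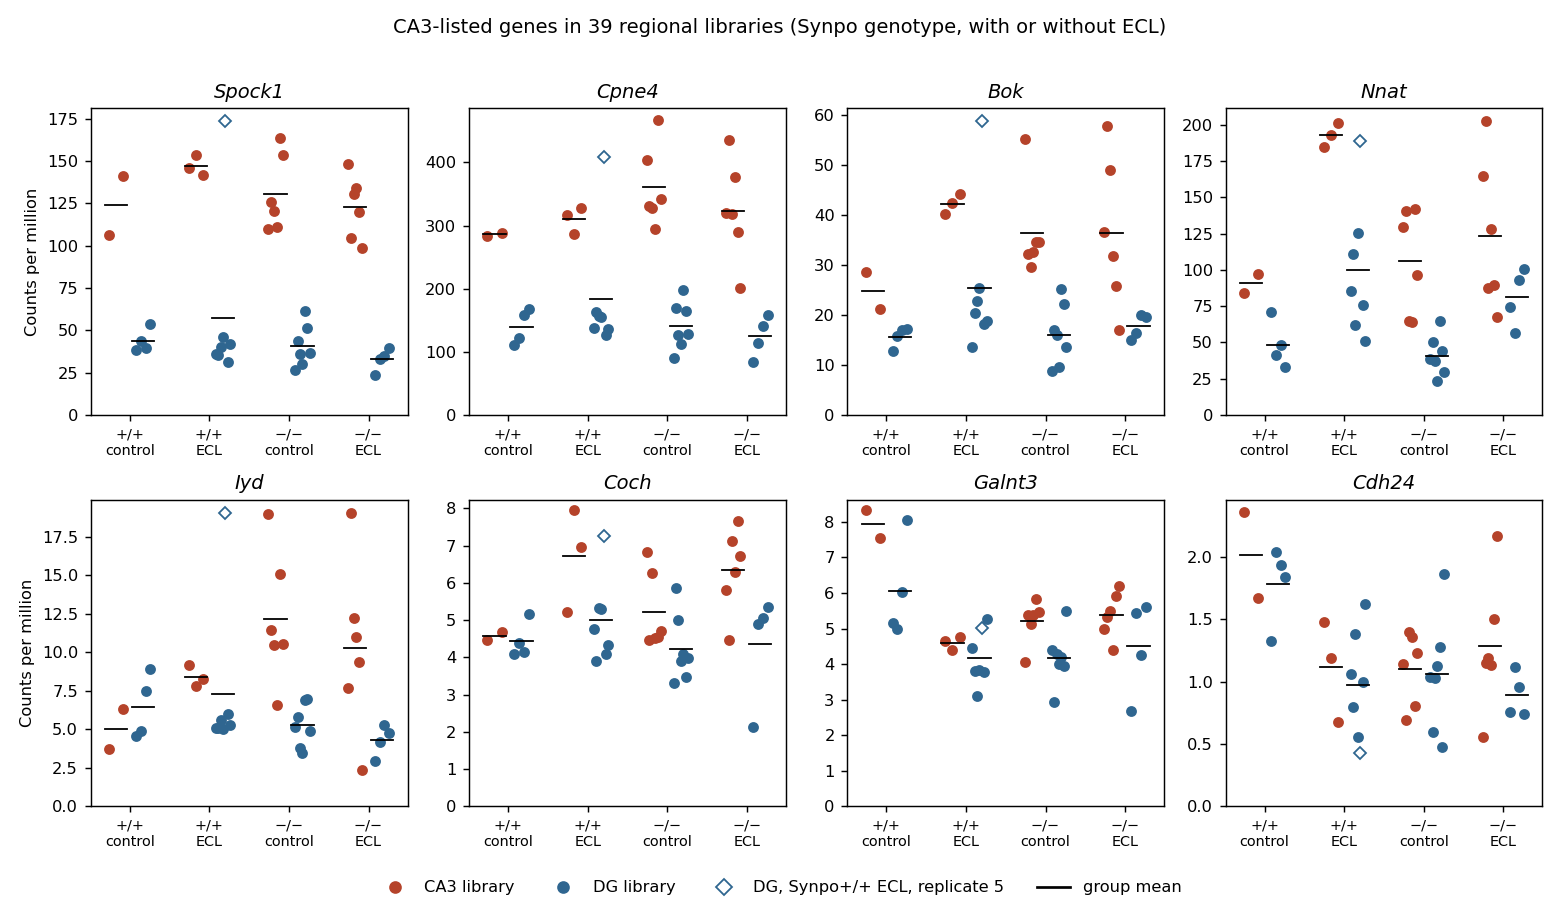
Level of each of the 8 genes in CPM (linear axes from 0) in every library of the 8 regional groups, with points for libraries and bars for group means. Spock1 and Cpne4 separate CA3 from DG, apart from DG Synpo+/+ ECL replicate 5 (open diamond), where Spock1 had 174 CPM.

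**Figure D2:**
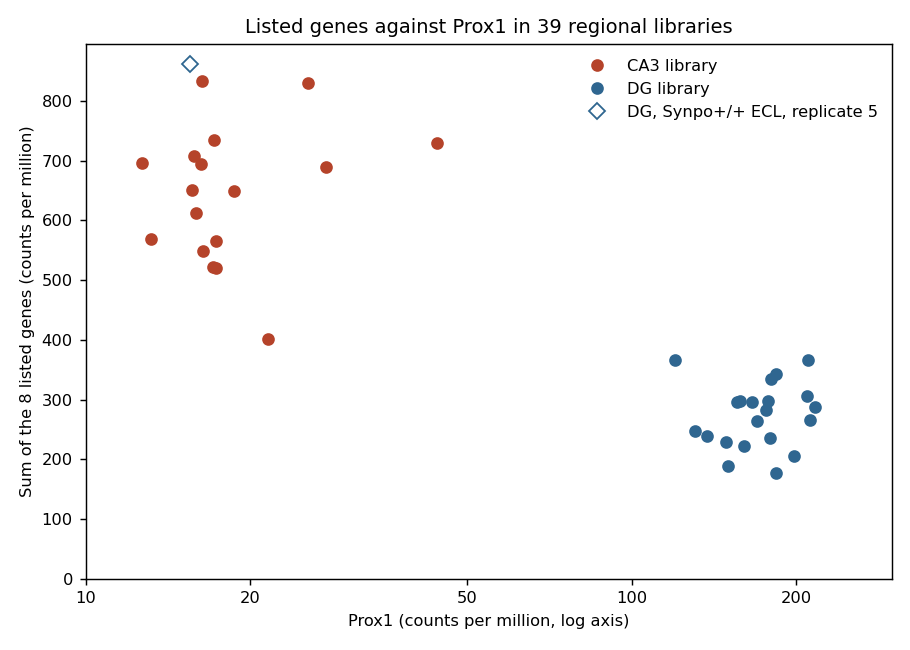
Summed level of the 8 genes against Prox1, both in CPM, in the 39 regional libraries (Prox1 on a log axis). The 21 other DG libraries lie at 120 to 217 CPM of Prox1 and the CA3 libraries at 12.7 to 44.0, and DG Synpo+/+ ECL replicate 5 (open diamond) lies among the CA3 libraries.

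In the regional comparison, 7 of the 8 genes were higher in CA3 than in DG. The list was chosen with earlier results of these data known, so this count describes the list and does not test it. CA3 and DG were compared over all 39 libraries with genotype and lesion in the model (quasi-likelihood test of edgeR, adjusted by Benjamini-Hochberg over 30550 genes). The background was 16.4% of all genes higher in CA3. The median log2 fold change was 0.87 for the 8 genes and -0.05 for all genes tested. Without DG Synpo+/+ ECL replicate 5 the count was again 7. In bulk tissue, more cells of a type and more RNA per cell cannot be told apart.

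Spock1 separated the areas most clearly. In non-lesioned Synpo+/+ cultures, Spock1 had 106 and 141 CPM in the CA3 libraries and 38.1, 43.4, 39.5 and 53.7 CPM in the DG libraries. After ECL, the Synpo+/+ CA3 libraries had 146, 153 and 142 CPM, and the 7 DG libraries had 31.0 to 174 (median 39.9) with replicate 5 as the highest. In Synpo-/- cultures, Spock1 was 109.6 to 164 (median 123) CPM in CA3 and 26.6 to 61.6 (median 36.5) CPM in DG without lesion. After ECL it was 98.5 to 148 (median 125) CPM in CA3, and 23.6, 33.2, 35.1 and 39.7 CPM in the 4 DG libraries. Every CA3 library was above every DG library other than that replicate. Spock1 had a log2 fold change of 1.64 (SE 0.15, adjusted p = 5.52e-12), and 1.77 (SE 0.09) without replicate 5. Coch, the other secreted matrix protein, was detected at a far lower level, 4.47 to 7.94 CPM (median 5.80) in CA3 and 2.12 to 5.86 CPM (median 4.34) in DG without replicate 5, which had 7.26 CPM. The ranges overlapped, with 8 of 17 CA3 libraries above all of these DG libraries. Its log2 fold change of 0.36 (SE 0.10, adjusted p = 0.00638) did not pass without CA3 Synpo-/- ECL replicate 5 (0.27, adjusted p = 0.0539).

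Cpne4, the calcium-dependent copine, was the most abundant of the 8 by CPM. In non-lesioned Synpo+/+ cultures, Cpne4 had 283 and 289 CPM in the CA3 libraries and 111, 122, 158 and 168 CPM in the DG libraries. After ECL, the Synpo+/+ CA3 libraries had 317, 286 and 328 CPM, and the 7 DG libraries had 126 to 408 (median 155) with replicate 5 as the highest. As for Spock1, the areas were apart in both states except for the 1 DG library. In Synpo-/- cultures, Cpne4 was 295 to 467 (median 337) CPM in CA3 and 89.7 to 198 (median 128) CPM in DG without lesion. After ECL it was 202 to 435 (median 319) CPM in CA3, and 83.5, 114, 142 and 158 CPM in the 4 DG libraries. All 17 CA3 libraries were above the other 21 DG libraries. Between the areas, Cpne4 differed by a log2 fold change of 1.18 (SE 0.13, adjusted p = 2.51e-10), and 1.26 without replicate 5.

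Nnat ranged widely within both areas, 63.8 to 202 CPM (median 128) in CA3 and 23.3 to 125 CPM (median 56.1) in DG without replicate 5, which had 189 CPM. Only 9 of the 17 CA3 libraries were above those 21 DG libraries. Its log2 fold change between the areas was 1.00 (SE 0.15, adjusted p = 1.07e-06), and 1.05 without replicate 5. Bok, the Bcl-2 family member, was found at 16.97 to 57.9 CPM (median 34.6) in CA3 and 8.76 to 25.5 CPM (median 17.1) in DG without replicate 5, which had 58.9 CPM. Of the CA3 libraries, 15 of 17 were above those 21 DG libraries. Bok had a log2 fold change of 0.96 (SE 0.15, adjusted p = 1.25e-06), and 1.05 without replicate 5.

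Iyd was the listed gene whose regional fold change ranged most widely over the strata, with lower values in the Synpo+/+ strata than in the Synpo-/- strata. Whether the regional difference depended on genotype was not tested, and its dependence on lesion did not pass a test. In non-lesioned Synpo+/+ cultures, Iyd had 3.75 and 6.34 CPM in the CA3 libraries and 4.56, 4.87, 7.50 and 8.93 CPM in the DG libraries. After ECL, the Synpo+/+ CA3 libraries had 9.18, 7.82 and 8.29 CPM, and the 7 DG libraries had 5.01 to 19.1 (median 5.29) with replicate 5 as the highest. The Synpo+/+ control areas overlapped, with both CA3 values inside or below the DG range. In Synpo-/- cultures, Iyd was 6.61 to 19.0 (median 10.98) CPM in CA3 and 3.49 to 6.94 (median 5.13) CPM in DG without lesion. After ECL it was 2.35 to 19.1 (median 10.2) CPM in CA3, and 2.96, 4.18, 5.29 and 4.75 CPM in the 4 DG libraries. In the Synpo-/- cultures the areas met only at the lowest CA3 control library (6.61 CPM) and at CA3 ECL replicate 6, whose 2.35 CPM lay under all 4 lesioned DG libraries. This library also had the lowest sum of the 8 genes in CA3, 402 CPM. Over all strata, Iyd had a log2 fold change of 0.78 (SE 0.21, adjusted p = 0.00285), and 0.90 without DG Synpo+/+ ECL replicate 5.

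Galnt3 and Cdh24 differed little between the areas. Galnt3, the glycosylation enzyme, had 4.07 to 8.35 CPM (median 5.37) in CA3 and 2.68 to 8.05 CPM (median 4.34) in DG, with overlapping ranges. Its log2 fold change of 0.27 (SE 0.09, adjusted p = 0.0181) did not pass when genes with low counts were kept in the fit (0.24, adjusted p = 0.0734), nor without CA3 Synpo-/- ECL replicate 4 or 5, CA3 Synpo+/+ control replicate 1 or 2 or CA3 Synpo+/+ ECL replicate 1 (0.18 to 0.21, adjusted p from 0.0812 to 0.159). Coch and Galnt3 did not pass once the trend with gene length was taken out (0.26, adjusted p = 0.0511, and 0.18, adjusted p = 0.161). Cdh24, the cadherin, was the lowest of the 8 at 0.555 to 2.37 CPM (median 1.19) in CA3 and 0.425 to 2.04 CPM (median 1.05) in DG, and its log2 fold change was 0.24 (SE 0.18, adjusted p = 0.357).

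Divided by exon length, the order of levels in CA3 changed. Nnat (68.7 ± 26.9 CPM per kb, SD, n = 17) and Cpne4 (60.02 ± 11.4) were the highest, and their ranges overlapped. Bok (19.6 ± 6.04) and Spock1 (15.5 ± 2.37) came next and also overlapped, followed by Iyd (6.17 ± 2.82 CPM per kb). Coch (1.94 ± 0.416), Galnt3 (1.25 ± 0.251) and Cdh24 (0.366 ± 0.139 CPM per kb) were the lowest.

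Within single strata fewer libraries entered each comparison, and Spock1 and Cpne4 were called in 3 of the 4 strata, as the plot of regional differences shows. In Synpo+/+ control cultures 3 genes were higher in CA3, against a background of 2.75%: Spock1 (log2 fold change 1.49, adjusted p = 9.17e-05), Cpne4 (1.02, adjusted p = 0.00198) and Nnat (0.89, adjusted p = 0.0277). Nnat did not pass without CA3 replicate 1 (adjusted p = 0.057) or 2 (adjusted p = 0.193) or DG replicate 3 (adjusted p = 0.0768), nor with all 8 regional groups in one fit (adjusted p = 0.255). Bok, at 0.65 (adjusted p = 0.0529), passed without CA3 replicate 2 (0.87, adjusted p = 0.0476), with DESeq2 (adjusted p = 0.022), with the size factors of DESeq2 (adjusted p = 0.0446) and without the filter on low counts (adjusted p = 0.0203). Iyd was at a log2 fold change of -0.37 (SE 0.31, adjusted p = 0.607). The groups did not overlap for 4 of the 8 genes in this stratum, against 27.6% of all genes.

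In Synpo+/+ cultures after ECL, 0 of the 8 genes passed, against a background of 0.508%. Of the 8, 4 had an unadjusted p under 0.05, against 4698 of 24029 genes. DESeq2 called 2 of the 8, and 1360 genes in all. Without DG replicate 5, 5 genes were higher in CA3, and over all genes 2946 were then higher and 1800 lower of 23965 tested, against 122 and 370 with it. The log2 fold change of Spock1 was 1.31 (SE 0.41, adjusted p = 0.0981) with that library and 1.90 (SE 0.11, adjusted p = 6.33e-09) without it. For Nnat it was 0.90 and 1.14 (adjusted p = 0.00038 without), for Bok 0.68 and 1.04 (adjusted p = 5.61e-05), for Cpne4 0.71 and 1.04 (adjusted p = 1.4e-06) and for Iyd 0.14 and 0.61 (adjusted p = 0.00685).

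In Synpo-/- control cultures 5 genes were higher in CA3, against a background of 12.5%, with log2 fold changes of 1.58 for Spock1, 1.27 for Nnat, 1.25 for Cpne4, 1.10 for Iyd (adjusted p = 0.000317) and 1.09 for Bok. Each of the 5 passed whichever library was left out. After ECL 4 genes were higher in Synpo-/- CA3, against a background of 6.24%: Spock1 (1.88), Cpne4 (1.37), Iyd (1.23, adjusted p = 0.045) and Bok (1.01, adjusted p = 0.0158). Iyd passed in only 2 of 10 fits that left out 1 library each. It did not pass without CA3 replicate 2, 3, 4 or 5 or any 1 of the 4 DG replicates (0.98 to 1.35, adjusted p from 0.0571 to 0.142), and Bok did not pass without DG replicate 1 (0.94, adjusted p = 0.0616). Nnat, at 0.59 (adjusted p = 0.167), passed without CA3 replicate 6 (0.73, adjusted p = 0.0392). Whether the regional difference depended on lesion was tested within each genotype. In either, 0 of the 8 genes passed (background 0.0% in Synpo+/+ and 1.12% in Synpo-/-), with or without DG replicate 5. With all libraries 0 of the 8 had an unadjusted p under 0.05, against 1240 of 27783 genes in Synpo+/+ and 2787 of 25435 in Synpo-/-. DESeq2 called 0 of the 8, against 10 and 677 genes in all.

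**Figure D3:**
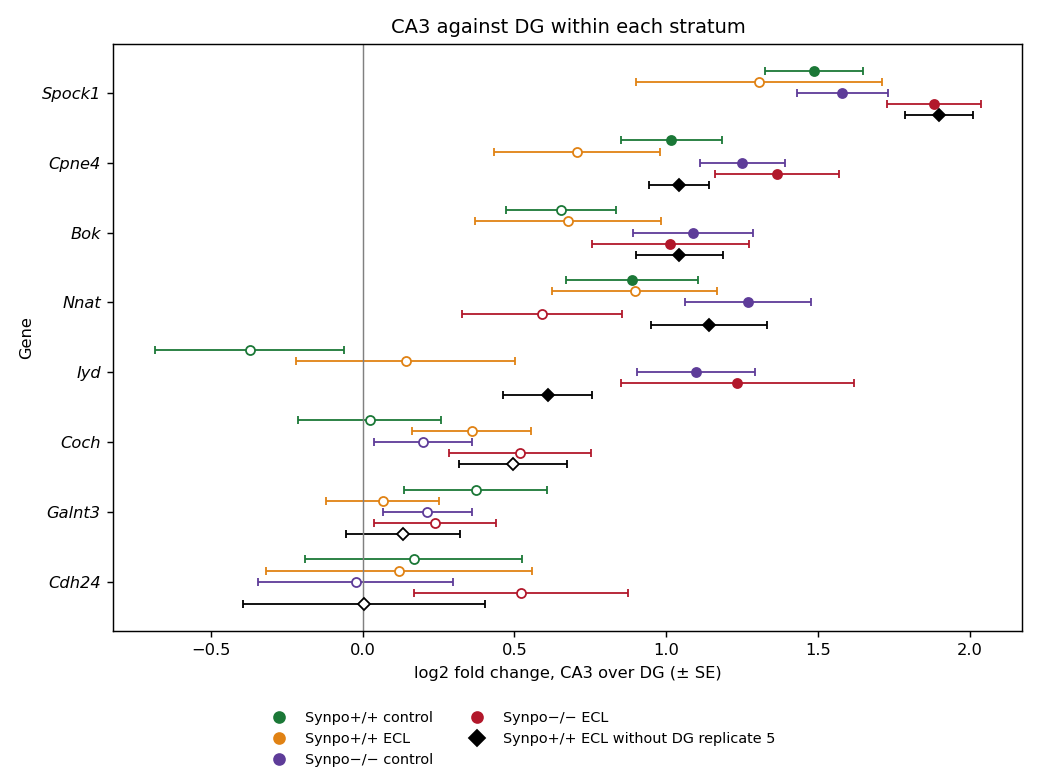
Log2 fold change of CA3 over DG (± SE) for each gene in the 4 strata, with filled markers for an adjusted p under 0.05 and black diamonds for Synpo+/+ ECL without DG replicate 5. Spock1 lies between 1.31 and 1.90 in all of these fits, while Cdh24 lies between -0.02 and 0.52 with wide errors.

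Markers of other cells moved with the area. The 5 other CA3 pyramidal markers, Neurod6, Nectin3, Homer3, Grik4 and Dkk3, were all higher in CA3 (log2 fold changes from 0.62 to 1.82, median 1.44), and the 6 dentate granule markers were all lower (median -2.99). Over all strata, 5 of 5 oligodendrocyte markers were higher in CA3 (median 0.87), and 4 of 5 astrocyte markers were lower (median -0.23). In control cultures, oligodendrocyte markers were higher for 3 of 5 in Synpo+/+ and 5 of 5 in Synpo-/-. After ECL the count was 0 of 5 in either genotype. In Synpo+/+ after ECL, with DG replicate 5 among the libraries, the 5 other CA3 pyramidal markers also had 0 calls. The lists were not fitted without that library. Astrocyte markers were lower for 0 of 5 in both control strata, with 1 higher in Synpo-/-. After ECL, 1 of 5 was lower in Synpo+/+ and 5 of 5 in Synpo-/-. Dependence of the area difference on lesion passed for 4 astrocyte and 1 oligodendrocyte markers in Synpo-/-, and for 0 in Synpo+/+. Summed oligodendrocyte markers ranged from 1046 to 2494 CPM over the CA3 groups and from 435 to 2297 CPM over the DG groups, where replicate 5 was the highest. No astrocyte or oligodendrocyte marker was at 0 in any library. Of the other lists, 1 of 6 microglia, 3 of 5 CA1 and subiculum, 4 of 5 interneuron, 3 of 4 fibroblast and 2 of 3 choroid plexus markers were lower in CA3. The CA2 list had 3 of 6 higher and 1 lower, mossy cells had 1 of 4 higher and 2 lower, and 2 of 3 ependymal markers were higher. The part of these lists in the regional levels of the 8 genes was not tested.

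Levels of the 8 genes were also compared with the rest of the transcriptome across the 39 regional libraries. The genes whose log2 CPM ran most like the mean of the 8, among 11498 genes with a mean of at least 5 CPM, were Robo1, an axon guidance receptor (Pearson's r = 0.957), Npy2r, a neuropeptide Y receptor (0.953), Lsm11 (0.948), Ccbe1 (0.940) and Sema3e, a secreted guidance cue (0.940). Dcc, the netrin receptor (0.938), C530008M17Rik (0.937), Pcdh20 (0.937), Cacna1c, an L-type calcium channel subunit (0.937), and Dmxl2 (0.936) followed. These values are descriptions over libraries that share the split into CA3 and DG. Against the mean of the other 7 members, r was 0.919 for Cpne4, 0.906 for Spock1, 0.809 for Bok, 0.658 for Iyd, 0.593 for Coch, 0.577 for Nnat, 0.367 for Galnt3 and -0.071 for Cdh24.

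The lesion comparison within CA3 asked whether the listed genes change when the perforant path is lost, and Nnat was the 1 gene of the 8 that passed. In Synpo+/+ CA3, Nnat had 84.3 and 97.2 CPM in the 2 control libraries and 184, 193 and 201 CPM in the 3 lesioned libraries. All lesioned libraries were above both controls. The log2 fold change was 0.98 (SE 0.12, adjusted p = 0.0165), against a background of 1.78% of 22340 genes called in either direction. The 397 genes behind this share became 0 without lesioned replicate 1, 2 without replicate 2 and 221 without replicate 3, and 110 or 669 without control replicate 1 or 2. The call was lost without lesioned replicate 1 (0.98, adjusted p = 0.0596) or 2 (0.96, adjusted p = 0.0832). It was also lost when all 8 regional groups shared 1 estimate of the spread (adjusted p = 0.162).

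The remaining 7 genes did not pass in Synpo+/+ CA3. Bok had 28.7 and 21.1 CPM before and 40.2, 42.5 and 44.3 CPM after ECL (log2 fold change 0.66, SE 0.16, adjusted p = 0.0611), and passed without control replicate 1 (0.93, adjusted p = 0.0488) and with DESeq2 (adjusted p = 0.00598). Galnt3 ran the other way, from 8.35 and 7.54 CPM to 4.64, 4.41 and 4.75 CPM (-0.89, SE 0.20, adjusted p = 0.0528), and passed with DESeq2 (-0.84, adjusted p = 0.04996). Without the filter on low counts both Bok (adjusted p = 0.00142) and Galnt3 (adjusted p = 0.0169) passed. These genes stood apart between the groups, with 2 control libraries to set the spread. Iyd had 3.75 and 6.34 CPM before and 9.18, 7.82 and 8.29 CPM after ECL (0.63, adjusted p = 0.158), and Cdh24 had a log2 fold change of -0.97 (SE 0.45, adjusted p = 0.221). Coch was at 0.45 (adjusted p = 0.274), Spock1 at 0.15 (adjusted p = 0.547) and Cpne4 at 0.01 (SE 0.11, adjusted p = 0.958). The groups did not overlap for 7 of the 8 genes, and for 46.9% of all genes tested, a share this small design reaches for many genes.

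In Synpo-/- CA3, 0 of the 8 genes passed, 0 had an unadjusted p under 0.05 and DESeq2 called 0. The background was 0.077%, with 1510 of 20772 genes at an unadjusted p under 0.05 and 68 called by DESeq2. Nnat had 63.8 to 142 (median 113) CPM in the 6 control libraries and 67.3 to 202 (median 109) CPM in the 6 lesioned libraries. These ranges overlapped over most of their length, and the log2 fold change was 0.23 (SE 0.25, adjusted p = 0.888). Galnt3 had 4.07 to 5.85 (median 5.38) CPM and 4.39 to 6.20 (median 5.41) CPM (0.06, SE 0.14), Bok had 29.5 to 55.2 (median 33.7) CPM and 16.97 to 57.9 (median 34.2) CPM (-0.01, SE 0.22), and all groups overlapped. Whether the lesion effect in CA3 differed between the genotypes was tested as an interaction, and 0 of the 8 genes passed, with 2 at an unadjusted p under 0.05. For Nnat the difference was -0.79 (SE 0.43, adjusted p = 0.353), and for Galnt3 it was 0.92 (SE 0.23, adjusted p = 0.138; DESeq2 adjusted p = 0.0284). Over all genes the test called 0 of 26821, with 4589 at an unadjusted p under 0.05, and DESeq2 called 383.

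In DG, the area that loses its main cortical input, Nnat was also higher after ECL in both genotypes. It had 71.0, 41.6, 48.2 and 33.3 CPM in the 4 Synpo+/+ control libraries and 85.2, 111, 61.9, 125, 189, 75.5 and 50.8 CPM in the 7 lesioned ones. The groups overlapped through control replicate 1 and lesioned replicates 3 and 7. The log2 fold change was 1.00 (SE 0.29, adjusted p = 0.0385, background 12.2% called), and 0.76 (adjusted p = 0.0311) without lesioned replicate 5. The call was lost without control replicate 2, 3 or 4 or lesioned replicate 2 or 4 (0.85 to 0.99, adjusted p from 0.0558 to 0.127), and with the length trend removed (0.73, adjusted p = 0.0689), where Galnt3 passed (-0.74, adjusted p = 0.0273). In Synpo-/- DG, Nnat had 23.3 to 64.4 (median 38.3) CPM in the 7 control libraries and 74.4, 56.1, 93.3 and 100.5 CPM in the 4 lesioned ones, with overlap through control replicate 5 and lesioned replicate 2. Here the log2 fold change was 0.95 (SE 0.21, adjusted p = 0.00867, background 8.53%), and it passed whichever library was left out. Galnt3 in Synpo+/+ DG was at -0.56 (SE 0.18, adjusted p = 0.055), and passed without lesioned replicate 5 (-0.62, adjusted p = 0.0349) or 7 (-0.68, adjusted p = 0.0294). Cdh24 was at -0.90 (adjusted p = 0.0926) and passed without lesioned replicate 7 (-1.13, adjusted p = 0.0428). No other listed gene passed in DG in either genotype. The difference between the regions in the lesion effect of Nnat was 0.02 (SE 0.46) in Synpo+/+ and -0.69 (SE 0.37, adjusted p = 0.515) in Synpo-/-.

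**Figure D4:**
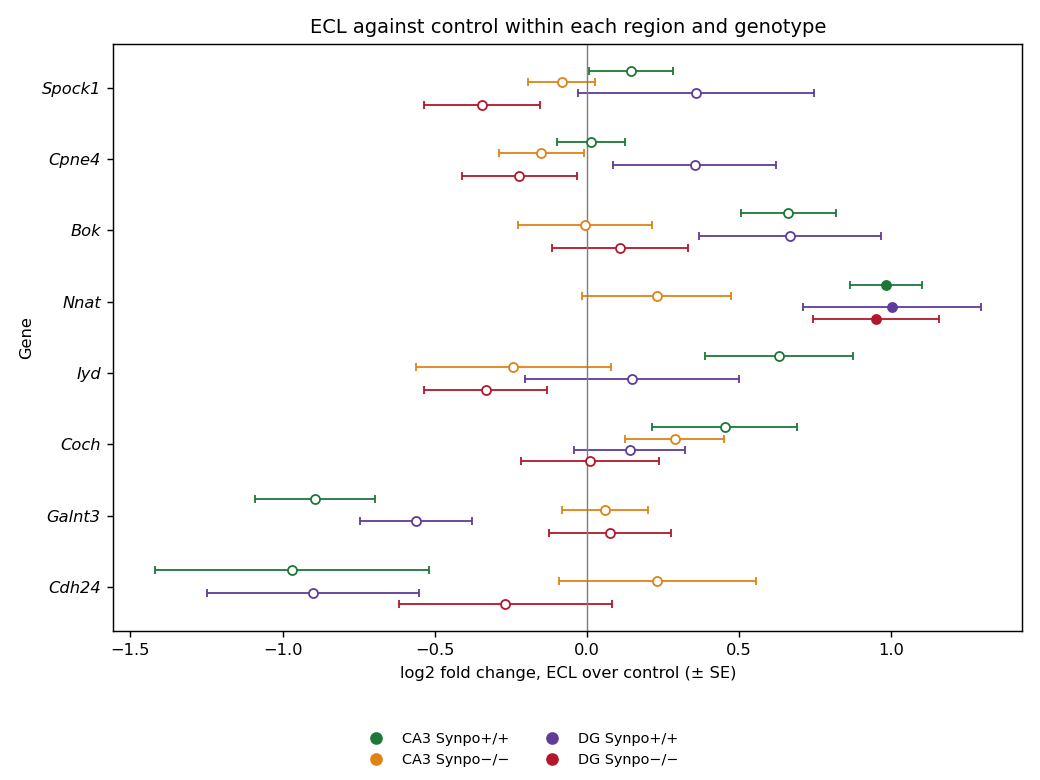
Log2 fold change of ECL over control (± SE) for each gene in CA3 and DG of both genotypes, with filled markers for an adjusted p under 0.05. Nnat is filled at 0.98, 1.00 and 0.95 and open at 0.23 in Synpo-/- CA3, and no other gene is filled.

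Glial markers moved with the lesion in all 4 strata, in different lists. Summed microglia markers went from 336 to 550 CPM in Synpo+/+ CA3 controls to 677 to 882 CPM after ECL, from 313 to 444 CPM to 868 to 1060 CPM in Synpo+/+ DG, and from 409 to 771 CPM to 923 to 1183 CPM in Synpo-/- DG. In Synpo-/- CA3 the ranges overlapped, at 512 to 941 and 437 to 808 CPM. Single microglia markers were higher for 1 of 6 in Synpo+/+ CA3, 0 of 6 in Synpo-/- CA3, 6 of 6 in Synpo+/+ DG and 5 of 6 in Synpo-/- DG. Of the 5 astrocyte markers, 0 passed in CA3 of either genotype, 4 were higher in Synpo+/+ DG and 5 in Synpo-/- DG. Summed astrocyte markers ranged from 2613 to 3314 and from 3838 to 4672 CPM in Synpo+/+ CA3, and from 3417 to 4024 and from 3037 to 4409 CPM in Synpo-/- CA3. They ranged from 2652 to 3139 and from 4537 to 6024 CPM in Synpo+/+ DG, and from 3000 to 3610 and from 5084 to 6610 CPM in Synpo-/- DG. Oligodendrocyte markers were lower for 2 of 5 in Synpo-/- CA3 (median -0.75), where their sum went from 1571 to 2494 CPM down to 1046 to 1458 CPM without overlap, and 0 of 5 passed in the other 3 strata. No microglia, astrocyte or oligodendrocyte marker was at 0 in any of these libraries. Choroid plexus markers were higher for 1 of 3 in Synpo-/- CA3 and 3 of 3 in Synpo-/- DG. Ependymal markers summed to 24.1 and 90.4 CPM in the 2 Synpo+/+ CA3 controls and to 1.90, 1.39 and 33.8 CPM after ECL, with Tmem212 at 0 in a lesioned library. The other 5 CA3 pyramidal markers had 0 calls with the lesion in each of the 4 strata. The part of these cells in the levels of Nnat was not tested.

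Comparing the libraries labelled Synpo-/- and Synpo+/+ within CA3, 0 of the 8 genes passed in control cultures, where 4 had an unadjusted p under 0.05 and DESeq2 called 1. The background was 0.00413% of 24203 genes, with 3959 at an unadjusted p under 0.05 and 834 called by DESeq2. Iyd had 3.75 and 6.34 CPM in the 2 Synpo+/+ and 6.61 to 19.0 (median 10.98) CPM in the 6 Synpo-/- control libraries, which did not overlap. Its log2 fold change was 1.20 (SE 0.33, adjusted p = 0.128; DESeq2 1.23, adjusted p = 0.0095). Galnt3 was at -0.67 (adjusted p = 0.138), Cdh24 at -0.91 (adjusted p = 0.259) and Bok at 0.49 (adjusted p = 0.272). The groups did not overlap for 5 of the 8 genes, against 18.6% of all genes. After ECL 0 of the 8 genes passed (background 0.00891%). Over all genes, 1383 of 22447 had an unadjusted p under 0.05 and DESeq2 called 21. Of the 8 genes, 1 had an unadjusted p under 0.05 and DESeq2 called 0. That gene was Nnat, with 184, 193 and 201 CPM in Synpo+/+ and 67.3 to 202 (median 109) CPM in Synpo-/- (-0.59, SE 0.26, adjusted p = 0.808). The Synpo+/+ values lay inside the upper part of the Synpo-/- range.

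The coIP comparison set RNA pulled down with the anti-synaptopodin antibody against input, and the 8 genes did not move together. The paper corrected for unspecific pull-down with Synpo-/- lysates, so the Synpo-/- group is the background for the other groups. In Synpo+/+ control samples Spock1 was higher and Cpne4 and Nnat were lower in coIP than in input, 3 of 7 genes tested against a background of 55.0% called. In Synpo+/+ ECL samples Galnt3 was higher and Cpne4 and Iyd were lower, 3 of 7 against 58.3%. In the libraries labelled Synpo-/-, Nnat, Bok and Iyd were lower, 3 of 8 against 31.4%. Medians over the members tested were -0.33, -0.34 and -0.19, against 0.04, 0.02 and 0.02 over all genes. These counts and medians are from the fit without pairing. In the paired fits 5, 5 and 4 of the members passed in the 3 groups, with 11393, 11376 and 7476 genes called in all. Since the input is made of whole cultures, these libraries hold every hippocampal field and entorhinal cortex.

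Spock1 was higher in coIP in 1 of the 3 groups. In Synpo+/+ control it had 70.9, 78.8, 83.5, 73.8 and 89.4 CPM in coIP and 55.7, 67.5, 65.3, 57.8 and 65.0 CPM in input, with every coIP library above every input. The log2 fold change was 0.37 (SE 0.09, adjusted p = 0.00365), but 0.09 (adjusted p = 0.415) once the trend with gene length was taken out. After ECL it had 71.0, 76.8, 68.1, 83.2 and 61.9 CPM in coIP and 69.7, 61.4, 68.4, 73.6 and 50.1 CPM in input, which overlapped (0.18, SE 0.12, adjusted p = 0.195). In Synpo-/- it had 78.0 and 88.8 CPM against 69.5 and 66.1 CPM (0.27, adjusted p = 0.156).

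Cpne4 was lower in coIP. In Synpo+/+ control it had 105, 129.7, 124, 117 and 122 CPM in coIP and 129, 155, 172, 153 and 151 CPM in input (log2 fold change -0.33, SE 0.09, adjusted p = 0.00689). Only the highest coIP library overlapped the lowest input, by less than 1 CPM. After ECL it had 129.8, 111, 137, 114 and 113 CPM in coIP and 149, 174, 168, 180.4 and 149 CPM in input, without overlap (-0.42, SE 0.10, adjusted p = 0.00182). In Synpo-/- it had 132 and 139.6 CPM against 160.2 and 183 CPM (-0.37, SE 0.13, adjusted p = 0.0513, and 0.0485 in a fit paired by preparation number, with 2 pairs). It passed with DESeq2 (adjusted p = 0.0258), without the filter on low counts (adjusted p = 0.0349), with the length trend removed (adjusted p = 0.0382) and without coIP replicate 2 (-0.41, adjusted p = 0.044).

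Nnat, which reached 506 CPM in input, had lower means in coIP in each group. In Synpo+/+ control it had 98.9, 258, 199, 354 and 233 CPM in coIP and 267, 447, 481, 506 and 435 CPM in input, and each coIP library was below the input of the same number (log2 fold change -0.88, SE 0.25, adjusted p = 0.00795, and 0.0554 with all 6 groups in one fit). After ECL it had 91.4, 34.2, 85.0, 139.7 and 199 CPM in coIP and 126, 66.3, 166, 335 and 363 CPM in input. The groups overlapped (-0.93, SE 0.45, adjusted p = 0.0893), yet every pair fell and the paired fit passed (-0.88, adjusted p = 3.38e-05). The unpaired fit passed without input replicate 2 (-1.17, adjusted p = 0.0283) or coIP replicate 5 (-1.26, adjusted p = 0.0282). In Synpo-/- the values were 218 and 201 CPM against 481 and 403 CPM (-1.11, SE 0.14, adjusted p = 0.000311). That call was lost with all 6 groups in one fit, where 0 of the listed genes passed in Synpo-/-. With the length trend removed, the Synpo+/+ control value was -0.40 (adjusted p = 0.199).

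Bok and Iyd had lower means in coIP than in input in all 3 groups. Bok in Synpo+/+ control had 17.7, 38.9, 27.9, 43.5 and 38.5 CPM in coIP and 27.6, 48.9, 43.5, 46.4 and 46.3 CPM in input (log2 fold change -0.33, SE 0.21, adjusted p = 0.189; paired -0.37, adjusted p = 0.0024). After ECL it was at -0.34 (adjusted p = 0.171; paired -0.33, adjusted p = 0.0149), and in Synpo-/- at -0.71 (SE 0.18, adjusted p = 0.0108). The Synpo-/- call was lost without input replicate 1 (-0.54, adjusted p = 0.0822), with all 6 groups in one fit and with the length trend removed (-0.40, adjusted p = 0.0891). Removing the length trend turned Bok to 0.15 and 0.25 in the Synpo+/+ groups. Iyd had 0.703 to 2.06 CPM in coIP and 1.68 to 3.44 CPM in input of Synpo+/+ control (-0.70, SE 0.30, adjusted p = 0.0625; paired -0.70, adjusted p = 0.0229). Leaving out input replicate 1 (-0.80, adjusted p = 0.0451) or 4 (-0.81, adjusted p = 0.0486) or coIP replicate 5 (-0.88, adjusted p = 0.0339) let it pass. After ECL Iyd had 1.44, 1.38, 2.38, 1.56 and 0.876 CPM in coIP and 2.23, 3.64, 5.57, 3.78 and 2.93 CPM in input (-1.23, SE 0.30, adjusted p = 0.00275). That value was -0.55 (adjusted p = 0.165) with the length trend removed. In Synpo-/- it was at -0.99 (SE 0.33, adjusted p = 0.0375), and the call was lost without input replicate 2 (-0.68, adjusted p = 0.305) or coIP replicate 1 (-0.83, adjusted p = 0.11). It was also lost with the length trend removed (-0.64, adjusted p = 0.17) and with all 6 groups in one fit.

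Galnt3, at 3.78 CPM or less in these libraries, was higher in coIP after ECL, with 1.52, 3.08, 2.83, 3.70 and 3.78 CPM against 1.04, 2.25, 1.77, 1.47 and 1.17 CPM in input (log2 fold change 0.96, SE 0.29, adjusted p = 0.0121). The groups overlapped. In Synpo+/+ control it was at 0.61 (SE 0.30, adjusted p = 0.0987), passing without input replicate 1 (0.81, adjusted p = 0.0348), and in Synpo-/- at 0.55 (SE 0.38, adjusted p = 0.292). Coch was at 0.03 (SE 0.20), 0.07 (SE 0.22) and -0.01 (SE 0.21) in the 3 groups. Cdh24 had too few counts to be tested in the Synpo+/+ groups and was at 0.43 (SE 0.67) in Synpo-/-.

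**Figure D5:**
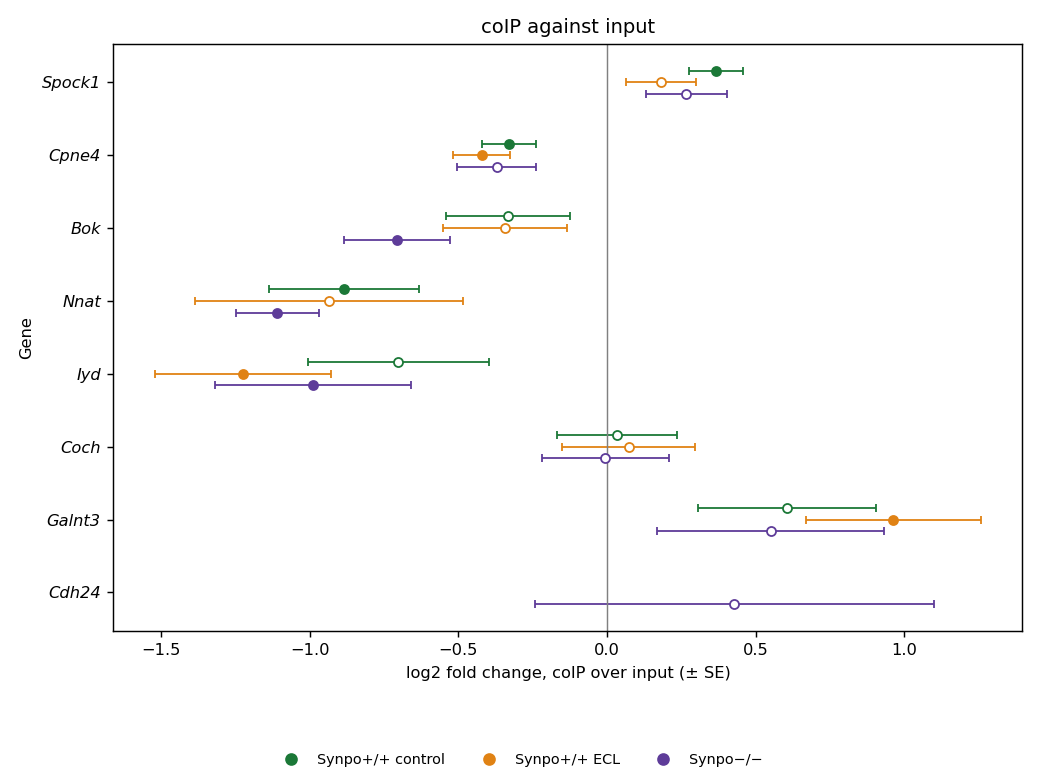
Log2 fold change of coIP over input (± SE) for each gene in Synpo+/+ control, Synpo+/+ ECL and Synpo-/-, with filled markers for an adjusted p under 0.05 in the unpaired fit. Spock1 and Galnt3 lie above 0, Cpne4, Bok, Nnat and Iyd lie below 0, and Coch lies between -0.01 and 0.07.

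The coIP effect was then compared between genotypes and between lesion states. The genotype test set Synpo+/+ control samples against the Synpo-/- samples, whose lesion state is not given. Total counts were 42886994 to 53682143 in these Synpo-/- libraries and 12888443 to 26730691 in the Synpo+/+ control libraries. Genotype and depth therefore cannot be told apart in this test. For the 8 genes tested against genotype and the 7 tested against lesion, 0 passed, 0 had an unadjusted p under 0.05 and DESeq2 called 0. Over all genes these tests also called 0 of 20621 and 0 of 19581, with 1511 and 434 at an unadjusted p under 0.05. DESeq2 called 60 and 0 genes. The largest differences between genotypes were 0.70 (SE 1.49) for Cdh24 and 0.32 (SE 0.37) for Bok, and those between lesion states were -0.48 (SE 0.43) for Iyd and 0.40 (SE 0.42) for Galnt3. The other CA3 markers were also divided. Neurod6 was lower in coIP (-1.47, -1.60 and -1.24 in the 3 groups), Nectin3 was higher (0.37, 0.38 and 0.61), and Grik4 was higher in the Synpo+/+ groups (0.56 and 0.74). Microglia markers were lower in coIP for 3 of 6, 6 of 6 and 4 of 6 genes, and summed to 513 to 958 CPM in input against 337 to 644 CPM in coIP of Synpo+/+ control. Their part in the coIP values was not tested.

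In whole-culture input after ECL, 0 of 7 listed genes passed against control (background 5.61%), 3 had an unadjusted p under 0.05 and DESeq2 called 1. Over all genes, 3493 of 17951 had an unadjusted p under 0.05 and DESeq2 called 1676. Nnat had 267, 447, 481, 506 and 435 CPM in the 5 control inputs and 126, 66.3, 166, 335 and 363 CPM in the 5 lesioned inputs. The lesioned range reached lower and overlapped the control range (log2 fold change -1.02, SE 0.36, adjusted p = 0.119). Nnat passed without lesioned replicate 5 (-1.32, adjusted p = 0.0395). This direction was opposite to that of Nnat in Synpo+/+ CA3 and DG, where it was higher after ECL. Bok was at -0.60 (SE 0.19, adjusted p = 0.0868) and passed with DESeq2 (adjusted p = 0.0262) and without control replicate 1 (-0.73, adjusted p = 0.0292). Without the filter on low counts both Nnat (adjusted p = 0.0284) and Bok (adjusted p = 0.0299) passed. Iyd was at 0.62 (SE 0.27, adjusted p = 0.224). In the same contrast 3 of 6 microglia markers (median 0.60) and 1 of 5 astrocyte markers (median 0.50) were higher, and 0 of 5 interneuron markers passed (median -0.52). The part of these lists in the input levels was not tested.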

How the data were processed

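Counts per gene were used as deposited. By the submitters' processing notes and the methods, the authors trimmed reads with cutadapt 3.5, aligned them to mm10 with STAR 2.7.8a and counted them with featureCounts 2.0.1, without strand, over GENCODE M25 exons. Reads were 100 bases long in the regional and 150 bases in the coIP experiment. Symbols were counted as given (107 hold more than 1 gene identifier, none of them a listed gene).

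Each comparison was fitted on its own groups with edgeR 4.0.16 (R 4.3.3; TMM, filterByExpr, quasi-likelihood test), with Benjamini-Hochberg adjustment over all genes tested and a threshold of 0.05. Log2 fold changes carry SE from the F statistic. Levels are CPM. DESeq2 1.42.0 and other settings were alternatives. The removed length trend was a lowess fit (span 0.3) made in each library before the model. It fitted the deviation of log2 CPM from the gene's mean over libraries on gene length, here log2 of the merged exon length. The fitted trend was then added to the library size term of the model. Tests on simulated data recovered 54 to 98 of 100 4-fold and 13 to 79 of 100 2-fold changes per comparison.

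The 8 genes were named in every comparison, beside marker lists and the 10 most similar genes over 5 CPM. Members and lists were chosen with earlier results of these data known. Same-numbered Synpo+/+ coIP and input samples deviated together (r from 0.128 to 0.707), so paired values are given where they change a call. The labels give replicate numbers and no lysate. Of the coIP samples, 4 of 5 in control and 3 of 5 after ECL were closest to the input of the same number. The titles of the Synpo-/- inputs cross preparation and replicate numbers, and these samples were numbered and paired by preparation. With 2 pairs, r was 0.106, and -0.106 for the other pairing, so a shared lysate was not shown. Depth per library is given with the results.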

Additional observations from a re-analysis of the deposited data

Results flagged for a closer look

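Within groups of 4 to 7 libraries, 80 sets of values were tested for a library standing apart from the rest, and 8 were marked, where chance marks about 1 in 20. Of these, 5 concerned 1 library, DG Synpo+/+ ECL replicate 5, which was the highest of its group with 174 CPM of Spock1, 408 CPM of Cpne4, 58.9 CPM of Bok, 19.1 CPM of Iyd and 7.26 CPM of Coch. Bok was the highest in CA3 Synpo-/- control replicate 1 (55.2 CPM, with 34.6 CPM in the next library) and the lowest in input Synpo+/+ control replicate 1 (27.6 CPM, with 43.5 CPM in the next). Coch was the lowest in DG Synpo-/- ECL replicate 1 (2.12 CPM, with 4.90 CPM in the next).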

How the results depend on the processing

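Of the listed genes' fold changes under single alternatives, 2756 kept direction and side of the threshold, 53 lost and 62 gained a call, and 186 changed sign, with a call in either fit in 0 of the 186. The cause was not tested. The number of listed genes called went, for CA3 against DG over all strata, from 7 to 4 when only genes with a mean normalized count over 300 could be called. In Synpo+/+ ECL it went from 0 to 2 with DESeq2, 2 without the filter on low counts and 1 with all 8 groups in one fit. For the lesion in Synpo+/+ CA3 it went from 1 to 3 with DESeq2, 3 without the filter and 0 with all 8 groups, and in Synpo+/+ DG from 1 to 2 with all 8 groups. Genotype by lesion went from 0 to 1 with DESeq2, and genotype in CA3 control from 0 to 1 with DESeq2 and 1 without the filter. For coIP it went in Synpo+/+ control from 3 to 1 with the length trend removed, in Synpo+/+ ECL from 3 to 5 without the filter, 1 over a mean of 300 and 5 with all 6 groups, and in Synpo-/- from 3 to 0 with all 6 groups. For the lesion in input it went from 0 to 1 with DESeq2 and 2 without the filter.

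DESeq2 turned the sign in areas in Synpo-/- control (Cdh24 0.041), lesion in Synpo+/+ DG (Spock1 -0.19), lesion in Synpo-/- DG (Coch -0.013), region by lesion in Synpo-/- (Galnt3 0.0036), coIP in Synpo+/+ control (Coch -0.012), genotype by fraction (Cpne4 0.0021). The size factors of DESeq2 did so in areas in Synpo-/- control (Cdh24 0.019), lesion in Synpo-/- DG (Coch -0.012), region by lesion in Synpo-/- (Galnt3 0.0098), coIP in Synpo+/+ control (Coch -5.4e-05), genotype by fraction (Cpne4 0.0034). Without the filter on low counts it turned in region by lesion in Synpo+/+ (Cdh24 0.037), genotype by fraction (Galnt3 -0.019), lesion by fraction (Bok -0.027). With the length trend removed it turned in areas in Synpo+/+ control (Coch -0.027), lesion in Synpo+/+ CA3 (Cpne4 -0.12), lesion in Synpo+/+ DG (Iyd -0.15, Coch -0.10), lesion in Synpo-/- DG (Coch -0.071), genotype by lesion (Coch 0.100), region by lesion in Synpo-/- (Galnt3 0.082), genotype in CA3 control (Coch -0.039, Spock1 -0.050, Nnat -0.025), genotype in CA3 after ECL (Coch 0.058), coIP in Synpo+/+ control (Bok 0.15), coIP in Synpo+/+ ECL (Bok 0.25, Spock1 -0.099), coIP in Synpo-/- (Coch 0.15), genotype by fraction (Coch 0.058, Spock1 -0.0099), lesion by fraction (Nnat 0.061). All 8 groups in one fit turned areas in Synpo-/- control (Cdh24 0.079). All 6 coIP and input groups in one fit turned coIP in Synpo-/- (Coch 0.028).

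With the replicate block the count was 5 for CA3 against DG in Synpo+/+ ECL (DG numbers 4 to 7 occur in DG only and carry no weight there), 2 for the lesion in Synpo+/+ CA3, 0 in Synpo-/- DG, 3 for genotype in CA3 control, 5 for coIP in Synpo+/+ control, 5 in Synpo+/+ ECL and 1 for the lesion in input. Same-numbered samples had r from -0.406 to 0.501 over the regional comparisons and from -0.442 to 0.179 for the inputs, so they were not taken as pairs. For CA3 and DG in Synpo-/- control, all 6 same-numbered pairs were above 0 (r from 0.060 to 0.474). The median of the other pairs there was -0.084, and 3 of the 6 were closest to their own number. Whether those samples shared a culture was not tested, and the block called 5 listed genes there. Under the block the sign turned in areas in Synpo+/+ control (Iyd 0.042), areas in Synpo+/+ ECL (Cdh24 -0.064), areas in Synpo-/- control (Cdh24 0.18), lesion in Synpo+/+ CA3 (Cpne4 -0.013), lesion in Synpo+/+ DG (Iyd -0.30, Spock1 -0.18), lesion in Synpo-/- DG (Coch -0.16), region by lesion in Synpo+/+ (Spock1 0.39), region by lesion in Synpo-/- (Bok 0.15, Cdh24 -0.067), genotype in CA3 control (Spock1 -0.13), genotype in CA3 after ECL (Bok 0.20, Cdh24 -0.14), coIP in Synpo-/- (Coch 0.0079), genotype by fraction (Coch 0.0082), lesion by fraction (Nnat 0.12).

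Leaving out 1 library each, counts ranged from 0 to 5 (areas, Synpo+/+ ECL), 2 to 5 (areas, Synpo-/- ECL), 0 to 2 (lesion, Synpo+/+ CA3), 0 to 3 (lesion, Synpo+/+ DG), 3 to 5 (coIP, Synpo+/+ control) and 0 to 1 (lesion, input). For the lesion in Synpo+/+ DG, Spock1 and Iyd were below 0 without lesioned replicate 5, and Spock1 was below 0 without control replicate 1 for the lesion in Synpo+/+ CA3. Fold changes that crossed 0 ranged, in log2 units, for the areas in Synpo+/+ control (Cdh24 -0.10 to 0.41, Coch -0.023 to 0.10), areas in Synpo+/+ ECL (Cdh24 -0.13 to 0.39), areas in Synpo-/- control (Cdh24 -0.16 to 0.18), lesion in Synpo+/+ CA3 (Spock1 -0.014 to 0.40, Cpne4 -0.034 to 0.061). They ranged for the lesion in Synpo-/- CA3 (Bok -0.19 to 0.14, Galnt3 -0.011 to 0.11, Cdh24 -0.018 to 0.38), lesion in Synpo+/+ DG (Iyd -0.32 to 0.33, Spock1 -0.23 to 0.45), lesion in Synpo-/- DG (Coch -0.086 to 0.23, Galnt3 -0.031 to 0.25), region by lesion in Synpo+/+ (Nnat -0.21 to 0.26, Cdh24 -0.25 to 0.25, Bok -0.15 to 0.40, Spock1 -0.40 to 0.41, Cpne4 -0.39 to 0.028). Ranges were, for region by lesion in Synpo-/- (Bok -0.27 to 0.084, Galnt3 -0.18 to 0.11, Iyd -0.16 to 0.34, Cpne4 -0.063 to 0.23), genotype in CA3 control (Spock1 -0.16 to 0.25), genotype in CA3 after ECL (Coch -0.17 to 0.11, Cdh24 -0.0077 to 0.53), coIP in Synpo+/+ control (Coch -0.087 to 0.16). Also crossing 0 were coIP in Synpo+/+ ECL (Coch -0.027 to 0.28), coIP in Synpo-/- (Coch -0.21 to 0.25), genotype by fraction (Coch -0.26 to 0.20, Galnt3 -0.40 to 0.32, Cpne4 -0.11 to 0.081, Nnat -0.040 to 0.37, Iyd -0.067 to 0.48, Spock1 -0.044 to 0.15), lesion by fraction (Bok -0.13 to 0.14, Coch -0.080 to 0.26, Nnat -0.33 to 0.25). The last ranges were for lesion in input (Spock1 -0.0082 to 0.12).

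Counts over all genes called moved more. Between areas over all strata, 8482 fell to 4692 when limited to a mean over 300, and in Synpo+/+ control 1382 became 785 by that limit and 692 with the block. In Synpo+/+ ECL, 492 became 284 by that limit, 1360 with DESeq2, 1190 unfiltered, 4999 with the block and 2036 with all 8 groups. The limit also took 5467 to 3254 in Synpo-/- control and 3098 to 1889 in Synpo-/- ECL. For the lesion in Synpo+/+ CA3, 397 became 1457 with DESeq2, 2716 unfiltered, 875 with the block, 7 with all 8 groups, 258 with DESeq2's size factors in edgeR and 96 with the length trend removed. In Synpo-/- CA3, 16 became 9 by the limit, 68 with DESeq2, 86 unfiltered, 34 with the block and 25 with the trend removed. In DG the limit took 2886 to 1399 (Synpo+/+) and 1989 to 1153 (Synpo-/-), the latter 662 with the block. Genotype by lesion had 0, but 383 with DESeq2, 160 unfiltered and 19 with the block. Region by lesion had 0 in Synpo+/+ (10 with DESeq2, 1 unfiltered) and 284 in Synpo-/- (177 by the limit, 677 with DESeq2, 459 with the block). Genotype in CA3 control had 1 (834 with DESeq2, 1022 unfiltered, 2232 with the block, 19 with all 8 groups, 3 with the trend removed), and after ECL 2 (21, 37 and 302, and 5 with the trend removed). In coIP the limit took 10031 to 5767 and 10620 to 5956 in the Synpo+/+ groups. Genotype by fraction had 0, but 60 with DESeq2, 55 unfiltered and 61 with the block. The lesion in input had 1007 (669 by the limit, 1676 with DESeq2, 656 with all 6 groups). Leaving out 1 library, these counts ranged between areas from 660 to 1466 in Synpo+/+ control, 0 to 4746 in Synpo+/+ ECL and 2118 to 4869 in Synpo-/- ECL, and for the lesion from 0 to 669 and 5 to 22 in CA3 and from 999 to 3338 and 1118 to 1925 in DG of Synpo+/+ and Synpo-/-. They ranged from 0 to 117 and 0 to 5 for genotype in CA3 control and after ECL, from 0 to 14 and 131 to 401 for region by lesion, from 3483 to 6305 for coIP in Synpo-/- and from 358 to 1070 for the lesion in input. Sample number (2 Synpo+/+ CA3 controls) and low counts (Cdh24) limit these comparisons.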
